A study of Mus musculus with 6 samples.

Results

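31 genes of cholesterol and fatty acid synthesis were followed across 6 cultures of mouse fallopian tube (FT) organoids, which are cysts of oviduct epithelium grown from primary cells. The genes came from a list of enzymes of both pathways and of their SREBP regulators. All 31 were found among the 23787 genes that the arrays name, through 50 probes whose RefSeq accession belongs to them. Total RNA was measured on 6 one-colour Agilent arrays, 1 for each group. Control was a culture from Trp53flox/flox mice carrying the empty vector pLKO.1. Trp53 loss was a culture without that tumour suppressor gene. Pik3ca/Trp53 added Pik3caH1047R, an activated PI3-kinase catalytic subunit, to the loss of Trp53. Apc/Trp53 added Apc580D, an altered allele of the Wnt pathway antagonist, to that loss. These 4 cultures were taken before inoculation. A tumour-derived culture of each of the last 2 had been grown again as organoids from the subcutaneous lesion, whose histology label was adenocarcinoma for Pik3ca/Trp53 and cyst for Apc/Trp53. The labels give 1 serum-free medium for all. It held the growth factor EGF, the Wnt agonists R-spondin1 and CHIR-99021 (which blocks GSK3), the BMP antagonist Noggin, the Notch ligand Jagged-1 and the ROCK inhibitor Y27632. They give neither the number of mice, nor how Trp53 was removed, nor whether a line is 1 clone. Another pair that the design names was not analysed here.

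Cells make cholesterol from acetyl-CoA through the mevalonate steps, which lead to farnesyl diphosphate, and then through squalene and lanosterol. Fatty acids come from the same acetyl-CoA, which is carboxylated, polymerised by fatty acid synthase, and then desaturated and elongated. Most of these genes are switched on by SREBP transcription factors, which INSIG proteins hold in the endoplasmic reticulum when sterols are plentiful and which PI3-kinase and mTORC1 signalling activates. Srebf2 mainly serves cholesterol genes, and the Srebf1c isoform mainly serves fatty acid genes. LXR, a nuclear receptor for oxysterols, raises Srebf1c, Scd1 and the sterol exporters when sterols accumulate.

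Between 45.44% and 50.95% of 56605 probes were well above background. Spots of 300 probes that are printed at least 10 times varied with a median SD of 0.0394 to 0.0816 log2 units within an array. The Pik3ca/Trp53 array, which enters both of the comparisons with the most members past 2-fold, had the lowest share above background, the highest of these SDs and 238 outlier spots against 58 to 131 elsewhere. The part of this in the results was not tested. The SD covers spot error only, and with 1 array per group the spread between cultures was not measured. Levels are the log2 background-subtracted signal minus the 75th percentile of the array, and 0 is that percentile. Where 6 levels follow each other without array names, their order is control, Trp53 loss, Pik3ca/Trp53, tumour-derived Pik3ca/Trp53, Apc/Trp53, tumour-derived Apc/Trp53. 30 of the 31 genes had a probe well above background on all 6 arrays. Thrsp was the exception, dim on the tumour-derived Pik3ca/Trp53 array alone. Trp53 stood at 1.46 in control and at -6.00 in Trp53 loss, at least 43.3-fold lower. It stood at -4.49 in Pik3ca/Trp53 but at -1.05 in the culture derived from its tumour, which is at least 6.01-fold higher than in the source. Apc/Trp53 had -2.99 and its tumour-derived culture -6.12. The probe was well above background on 3 arrays, which were control, tumour-derived Pik3ca/Trp53 and Apc/Trp53. Pik3ca stood at 2.13, 1.58, 2.55, 0.36, 1.34 and 2.67 in the same order, lowest in the tumour-derived Pik3ca/Trp53 culture, which was 4.56-fold below its source. The place of the Trp53 probe relative to the deletion was not checked, so these values test the labels only in part.

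The array labelled tumour-derived Pik3ca/Trp53 stood apart in its markers as well. Of the markers of mammary secretory epithelium, the milk protein genes Csn1s1 and Csn3 were above background only there, at levels of 4.15 and 6.36, and Lalba stood at 3.44 against -3.40 to -2.72 on the other arrays. Other genes of that list did not follow, since Csn2 was above background in Trp53 loss alone, at -1.87, and Btn1a1 stood at 5.02 there and at 5.59 in the source. In all, 5 of its 9 genes were above background there and 3 or 4 elsewhere. The summed signal of that list was 239 times the 75th percentile there and 15.4 to 35.0 times elsewhere. The oviduct gene Msx1 stood at -3.39 there against 1.86 to 5.79 elsewhere. Pax8, which marks oviduct secretory cells, was above background on all 6 arrays, between -0.40 and 0.57, and so was Foxj1 of ciliated cells. Other genes of these lists were mixed. Of the oviduct list, Wt1 stood at -5.22 on that array and 2.25 in its source, but was not above background in control either. Ovgp1 stood at 3.04 and 3.38, Krt7 at 5.93 and 4.30, and Esr1 at -0.43 and 0.48. Of the list of ciliated cells, Tekt1 and Ccdc39 were not above background on that array. In all, 4 of its 7 genes were, against 3 in the source. Of the adipocyte list, Fabp4 and Cidec stood at 1.42 and -0.18 on that array, while Adipoq and Plin1 were not above background on any array. The part that other cells, or another identity of this culture, may have in the differences below was not tested. In bulk RNA, fewer cells of a type and less RNA per cell cannot be told apart.

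Most of the group stood higher in Pik3ca/Trp53 than in Trp53 loss, and much of it stood lower in the culture grown from the Pik3ca/Trp53 tumour than in its source. With 1 array per group these are differences between 2 arrays, with no test. In Trp53 loss minus control, the median log2 difference of the 31 genes was 0.38 against 0.07 over all 14361 genes measured. 1 of 31 was at least 2-fold higher (6.17% of all genes) and 0 were lower by as much (7.16%). At 1.5-fold, 3 were higher (12.5% of all genes) and 2 lower (12.9%), and 26 of 31 lay above 0 (57.0% of all genes). In Pik3ca/Trp53 minus Trp53 loss, the median was 0.44 against -0.01. 5 of 31 were at least 2-fold higher (9.03% of all genes) and 0 lower (8.67%). At 1.5-fold, 9 were higher (16.4% of all genes) and 0 lower (16.7%), and 25 of 31 lay above 0 (49.2%). In Apc/Trp53 minus Trp53 loss, the median was 0.07 against 0.00, with 1 gene at least 2-fold higher (5.27% of all genes) and 1 lower (5.39%). At 1.5-fold, 3 were higher (10.2%) and 1 lower (11.0%), and 19 of 31 lay above 0 (50.5%). The counts past a fold in that comparison are close to those of the whole array.

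In tumour-derived Pik3ca/Trp53 minus its source, the median was -0.93 against -0.06 over 14727 genes. 14 of 31 were lower by 2-fold or more (10.6% of all genes) and 1 was higher by as much (14.5%). At 1.5-fold, 21 were lower (21.1% of all genes) and 2 were higher (21.5%), and 4 of 31 lay above 0 (46.5% of all genes). In tumour-derived Apc/Trp53 minus its source, the median was 0.03 against -0.05, with 0 genes at least 2-fold higher (11.1% of all genes) and 1 lower (8.23%). At 1.5-fold, 4 were higher (17.4%) and 2 lower (16.5%), and 18 of 31 lay above 0 (45.4%). The first 3 of these comparisons share the Trp53 loss array. Each source array enters both its comparison with Trp53 loss and that with its tumour-derived culture, so the values of these comparisons are not independent. All 6 arrays lay on 1 slide. Trp53 loss, Pik3ca/Trp53 and Apc/Trp53 lay in 1 row of it and the rest in the other, so the comparisons of Pik3ca/Trp53 and Apc/Trp53 with Trp53 loss lie within a row, and in the other 3 the row and the group cannot be told apart.

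**Figure D1:**
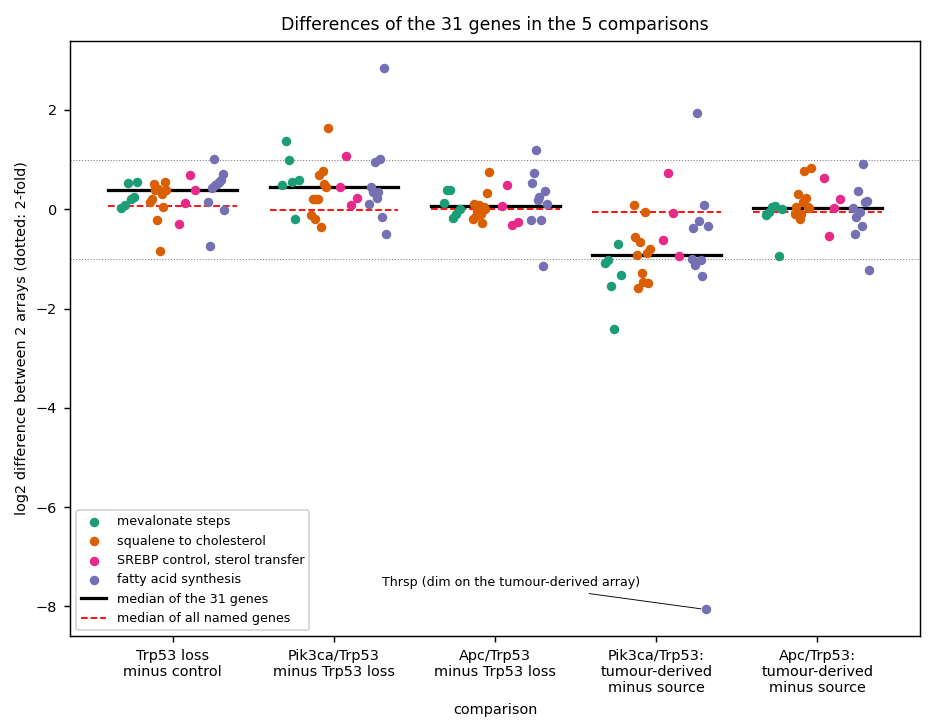
Log2 differences of the 31 genes (points, coloured by role) in the 5 comparisons of 2 arrays, with the median of the 31 genes (black line) and of all named genes measured (red dashed line). Dotted lines mark 2-fold, and most points of tumour-derived Pik3ca/Trp53 minus its source lie below the median of all genes, with a median of -0.93.

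Since each comparison leans on 1 reference array, the place of each culture among the 6 was also counted. Pik3ca/Trp53 was the highest of the 6 arrays for 19 of the 31 genes, 61.3%, against 16.6% of 16068 genes, and was the lowest for 0 of them (10.3% of all genes). Its tumour-derived culture was the lowest for 19 of 31, also 61.3%, against 26.2% of all genes. It was the highest for 2, Scd1 and Srebf1 (24.4% of all genes). Control was the lowest for 8 (25.8% of the members and 18.1% of all genes). Against control in place of Trp53 loss, Pik3ca/Trp53 had 10 genes at least 2-fold higher (10.9% of all genes) and 1, Hsd17b7, lower (11.0%). The 10 were Acss2, Ebp, Fdps, Mvk, Nsdhl, Pmvk, Scd1, Srebf1, Thrsp and Tm7sf2. Against Trp53 loss in place of its source, the tumour-derived Pik3ca/Trp53 culture had 6 genes at least 2-fold lower (13.0% of all genes), which were Cyp51, Dhcr7, Hsd17b7, Lss, Mvd and Thrsp, and 2 higher (15.3%), Scd1 and Srebf1. For the Apc/Trp53 cultures the same change of reference gave 4 higher (8.25% of all genes) and 1 lower (9.49%) against control, and 2 higher (13.7%) and 2 lower (11.9%) for the tumour-derived culture against Trp53 loss. For tumour-derived Pik3ca/Trp53 the count of 14 thus holds only against the source array, where most of these genes were at their highest.

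The 6 genes of the mevalonate steps had a median difference of 0.56 in Pik3ca/Trp53 minus Trp53 loss, and of -1.20 in its tumour-derived culture minus the source, where 5 of 6 were at least 2-fold lower. Mvd, which decarboxylates mevalonate diphosphate to isopentenyl diphosphate, stood at 2.52, 2.72, 3.28, 0.86, 2.55 and 2.61. The first 3 and the last 2 of these arrays lay between 2.52 and 3.28, and the tumour-derived Pik3ca/Trp53 array was 5.34-fold below its source. Pmvk, the phosphomevalonate kinase, stood at 3.65, 4.17, 5.16, 3.62, 4.55 and 4.60. It was 1.99-fold higher in Pik3ca/Trp53 than in Trp53 loss and 2.91-fold lower in the tumour-derived culture, which brought it to the control level. Its 2 probes differed by an SD of 0.189 log2 units in that last difference. Mvk, the mevalonate kinase, had 0.76, 0.86, 2.24, 1.21, 1.24 and 1.19. It was high in Pik3ca/Trp53 alone, 2.6-fold above Trp53 loss (SD of 0.132 between 2 probes) and 2.04-fold above its tumour-derived culture. The latter remained above control, so against Trp53 loss Mvk was 0.35 higher there on the log2 scale.

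Fdps, which makes farnesyl diphosphate, stood at 5.57, 6.11, 6.69, 5.36, 6.12 and 6.12. Its highest array was again Pik3ca/Trp53, 1.49-fold above Trp53 loss and 2.51-fold above its tumour-derived culture. Hmgcs1, which makes HMG-CoA, stood at 5.52, 5.53, 6.01, 4.93, 5.67 and 5.56. Control, Trp53 loss and both Apc/Trp53 cultures lay between 5.52 and 5.67, and the tumour-derived Pik3ca/Trp53 array was 2.12-fold below its source. Idi1, the isopentenyl diphosphate isomerase, had 3.98, 4.23, 4.05, 3.34, 4.13 and 3.18. It was the only gene of these steps that was low in both tumour-derived cultures, 1.63-fold below the source for Pik3ca/Trp53 and 1.94-fold for Apc/Trp53.

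The 11 genes from squalene to cholesterol had medians of 0.31 in Trp53 loss minus control, 0.21 in Pik3ca/Trp53 minus Trp53 loss and -0.89 in its tumour-derived culture minus the source, where 4 of 11 were lower by 2-fold or more and 8 by 1.5-fold or more. Cyp51, the lanosterol demethylase, stood at 1.54, 1.91, 2.12, 0.54, 1.88 and 1.68. The tumour-derived Pik3ca/Trp53 array was the lowest and lay 2.98-fold below its source (SD of 0.025 between 2 probes). Dhcr7, which catalyses the last reduction to cholesterol, had 1.26, 1.81, 2.25, 0.76, 2.14 and 2.15. It was 1.46-fold higher in Trp53 loss than in control, and the tumour-derived Pik3ca/Trp53 culture was 2.8-fold below its source and also below control. Nsdhl, which takes part in removing the C4 methyl groups, stood at 1.48, 1.88, 2.57, 1.29, 1.79 and 1.93. It was 1.62-fold higher in Pik3ca/Trp53 than in Trp53 loss and 2.43-fold lower in the tumour-derived culture.

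Tm7sf2, a sterol reductase of the same route, differed from the rest. It stood at 1.45, 1.84, 3.48, 2.68, 2.60 and 3.43, so that 4 arrays with an added allele all lay above control and Trp53 loss. The difference from Trp53 loss was 3.12-fold for Pik3ca/Trp53 (SD of 0.102 between 2 probes) and 1.7-fold for Apc/Trp53. Its tumour-derived cultures went opposite ways, 1.74-fold lower for Pik3ca/Trp53 and 1.78-fold higher for Apc/Trp53. Hsd17b7, the 3-ketosteroid reductase, had 2.50, 1.66, 1.31, -0.14, 1.38 and 2.16. Control was its highest array. It was 1.79-fold lower in Trp53 loss (SD of 0.175 between 2 probes), 2.74-fold lower in tumour-derived Pik3ca/Trp53 than in its source and 1.71-fold higher in tumour-derived Apc/Trp53 than in its source.

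Fdft1, the squalene synthase at the entry of this branch, stayed between 3.68 and 3.98 on all 6 arrays. Its values were 3.83, 3.98, 3.87, 3.95, 3.78 and 3.68, with a largest difference of -0.20 in the 5 comparisons. Sqle, the squalene epoxidase, ranged from 4.69 to 5.24, and Msmo1, the C4 methyl oxidase, from 3.86 to 4.53. Both were lowest in tumour-derived Pik3ca/Trp53. Lss, the lanosterol synthase, ranged from 0.43 there to 1.73 in tumour-derived Apc/Trp53, and Sc5d, the sterol C5 desaturase, from 2.87 there to 3.77 in Pik3ca/Trp53. Ebp, the sterol isomerase, ranged from 3.23 in control to 4.33 in Pik3ca/Trp53. Unlike most others it was still at 4.28 in the tumour-derived Pik3ca/Trp53 culture.

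**Figure D2:**
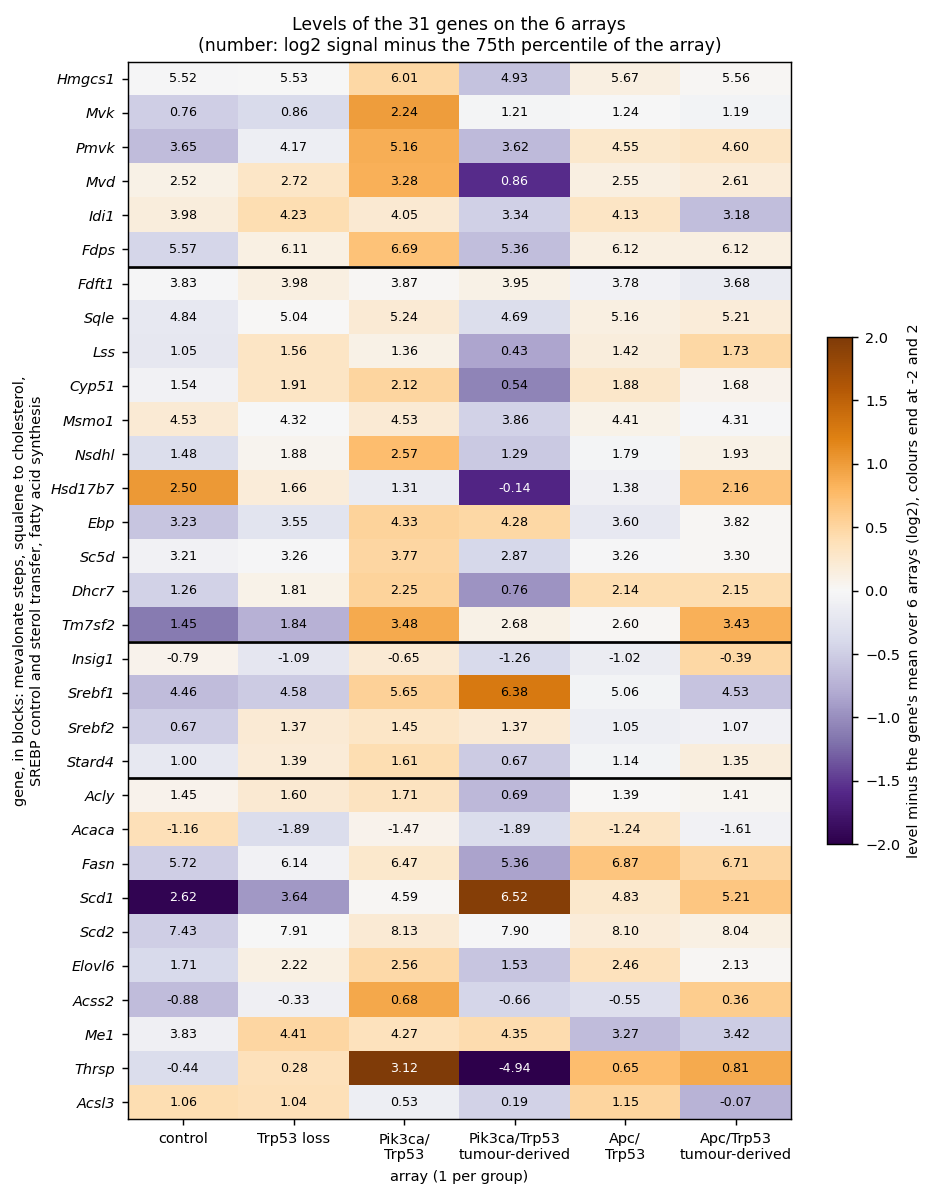
Levels of the 31 genes (rows, in blocks by role) on the 6 arrays (columns), with the log2 level printed in each cell and the colour giving the level minus the mean of that gene over the 6 arrays. The Pik3ca/Trp53 column is mostly orange (high) and its tumour-derived column mostly purple (low). In the latter, Scd1 and Srebf1 have their highest levels of the 6 arrays, at 6.52 and 6.38. Ebp, Me1, Srebf2, Fdft1 and Tm7sf2 also lie above their means there.

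The 4 genes of SREBP control and sterol transfer did not share 1 pattern. None of them was at least 2-fold lower in tumour-derived Pik3ca/Trp53 than in its source, and their median there was -0.35. Srebf1, the SREBP-1 gene, stood at 4.46, 4.58, 5.65, 6.38, 5.06 and 4.53. It was 2.09-fold higher in Pik3ca/Trp53 than in Trp53 loss and a further 1.66-fold higher in the tumour-derived culture, which had the highest level of the 6, while both Apc/Trp53 arrays stayed at or below 5.06. The single Srebf1 probe does not separate the 1a and 1c isoforms here. Srebf2, the SREBP-2 gene, had 0.67, 1.37, 1.45, 1.37, 1.05 and 1.07, so control was its lowest array, 1.62-fold below Trp53 loss, and it hardly differed between Pik3ca/Trp53 and its tumour-derived culture (-0.08). Insig1, which retains SREBPs and is itself an SREBP target, stood at -0.79, -1.09, -0.65, -1.26, -1.02 and -0.39. Its 2 tumour-derived cultures were the lowest and the highest of the 6, 1.53-fold below and 1.54-fold above their sources. Stard4, a carrier of cholesterol between membranes, had 1.00, 1.39, 1.61, 0.67, 1.14 and 1.35. It was 1.92-fold lower in tumour-derived Pik3ca/Trp53 than in its source, with an SD of 0.551 between its 2 probes, which means that they disagree on the size.

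The 10 genes of fatty acid synthesis had medians of 0.49 in Trp53 loss minus control, 0.34 in Pik3ca/Trp53 minus Trp53 loss and -0.69 in tumour-derived Pik3ca/Trp53 minus its source, where 5 of 10 were at least 2-fold lower and Scd1 was at least 2-fold higher. Scd1, the stearoyl-CoA desaturase that makes oleate, stood at 2.62, 3.64, 4.59, 6.52, 4.83 and 5.21. Control was its lowest array and tumour-derived Pik3ca/Trp53 its highest. The difference was 2.02-fold for Trp53 loss over control, 1.94-fold for Pik3ca/Trp53 and 2.29-fold for Apc/Trp53 over Trp53 loss, and 3.8-fold for the tumour-derived Pik3ca/Trp53 culture over its source. The first of these lies at the threshold and was under 2-fold after quantile normalization and after another background correction. Scd2, the paralogue, ranged only from 7.43 in control to 8.13 in Pik3ca/Trp53.

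Thrsp (Spot 14), a small protein that promotes fatty acid synthesis in lipogenic tissues, had the widest range of the 31. It stood at -0.44, 0.28, 3.12, -4.94, 0.65 and 0.81, high in Pik3ca/Trp53 alone. It was 7.19-fold higher in Pik3ca/Trp53 than in Trp53 loss (SD of 0.0759 between 2 probes). Both probes were not well above background in the tumour-derived Pik3ca/Trp53 culture, which makes the difference from its source at least 137-fold. Such a bound sets the dim signal to the lowest that is well above background on that array.

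Fasn, the fatty acid synthase, stood at 5.72, 6.14, 6.47, 5.36, 6.87 and 6.71. Its highest arrays were the Apc/Trp53 cultures, 1.66-fold above Trp53 loss before inoculation, and it was 2.17-fold lower in tumour-derived Pik3ca/Trp53 than in its source. Acly, which makes cytosolic acetyl-CoA from citrate, had 1.45, 1.60, 1.71, 0.69, 1.39 and 1.41. It was flat on 5 arrays and 2.02-fold lower in tumour-derived Pik3ca/Trp53 than in its source. Acss2, which makes it from acetate, stood at -0.88, -0.33, 0.68, -0.66, -0.55 and 0.36. It was 2.02-fold higher in Pik3ca/Trp53 than in Trp53 loss, where its 2 probes differed by an SD of 0.529. It was 2.52-fold lower in tumour-derived Pik3ca/Trp53 and 1.88-fold higher in tumour-derived Apc/Trp53 than in their sources.

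Elovl6, the elongase of palmitate, had 1.71, 2.22, 2.56, 1.53, 2.46 and 2.13, and was 2.04-fold lower in tumour-derived Pik3ca/Trp53 than in its source. Me1, the malic enzyme that supplies NADPH, stood at 3.83, 4.41, 4.27, 4.35, 3.27 and 3.42. Both Apc/Trp53 cultures were its lowest arrays, with a 2.2-fold difference between Apc/Trp53 and Trp53 loss (SD of 0.091 between 2 probes), and the 2 Pik3ca/Trp53 cultures hardly differed (0.08). Acsl3, which activates fatty acids at lipid droplets, had 1.06, 1.04, 0.53, 0.19, 1.15 and -0.07. It was low in both tumour-derived cultures, and 2.33-fold lower in that of Apc/Trp53 than in its source (SD of 0.0168 between 2 probes). Acaca, the acetyl-CoA carboxylase, stood at -1.16, -1.89, -1.47, -1.89, -1.24 and -1.61. Its 4 probes disagreed in Trp53 loss minus control by an SD of 1.36, because 1 of them was above background in control alone. With that probe at its bound the mean was 1.33-fold lower, which rests on that probe. The others hardly differed, with -1.14, 2.59 and -3.54 in control and -1.06, 2.58 and -3.80 in Trp53 loss. Its lowest place in tumour-derived Pik3ca/Trp53 also rests on dim probes, since its brightest probe stood at 3.14 there.

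**Figure D3:**
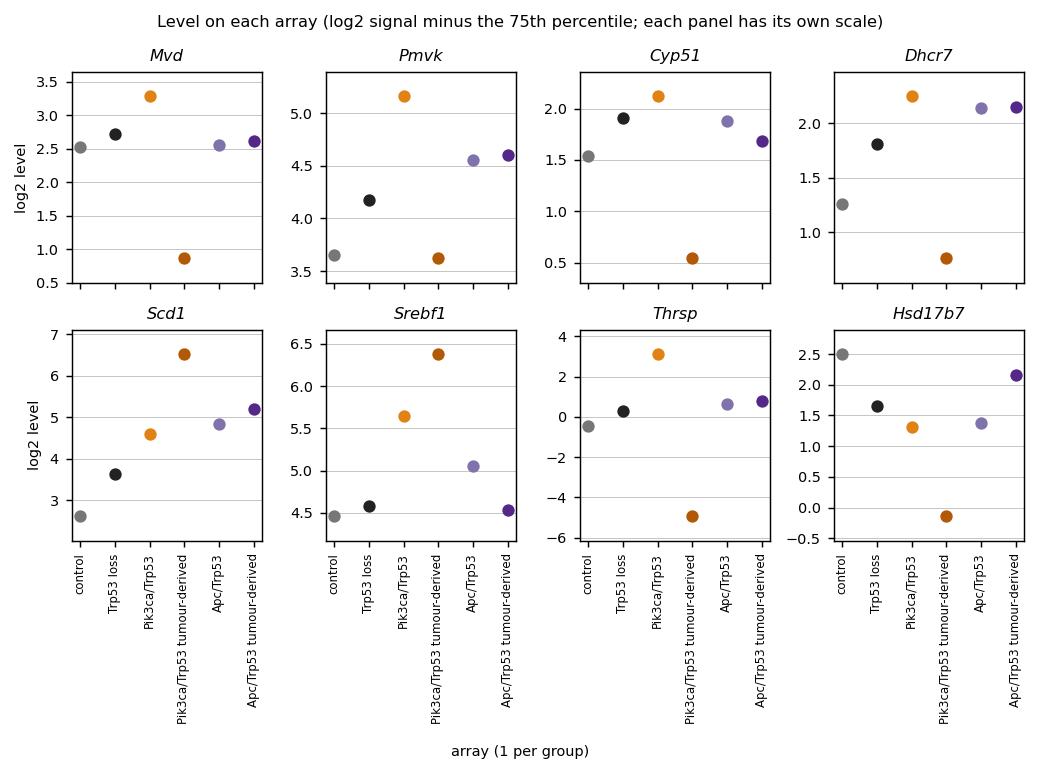
Log2 level (y axis, own scale in each panel) of 8 of the genes on each of the 6 arrays (x axis, 1 point per array). Mvd, Cyp51, Dhcr7, Thrsp and Hsd17b7 have their lowest point in tumour-derived Pik3ca/Trp53, Pmvk is as low there as in control, and Scd1 and Srebf1 have their highest point there.

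The 2 tumour-derived cultures can be set side by side, since these 2 comparisons share no array. Of the 14 genes that were at least 2-fold lower in tumour-derived Pik3ca/Trp53, 0 were at least 2-fold lower in tumour-derived Apc/Trp53, where 8.23% of all genes were, so that 0 of 14 is near the share of all genes. Mvd differed by -2.42 from its source in the former and by 0.06 in the latter. Pmvk differed by -1.54 and 0.05, Cyp51 by -1.58 and -0.20, and Dhcr7 by -1.49 and 0.02. Fdps, with -1.33 and 0.00, and Fasn, with -1.12 and -0.16, gave the same picture. In the Apc/Trp53 pair, 25 of the 31 lay within 1.5-fold of the source, Acsl3 and Idi1 lay below and Acss2, Tm7sf2, Hsd17b7 and Insig1 above it. Whether the 2 pairs differ was not tested, since each rests on 1 array per side.

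**Figure D4:**
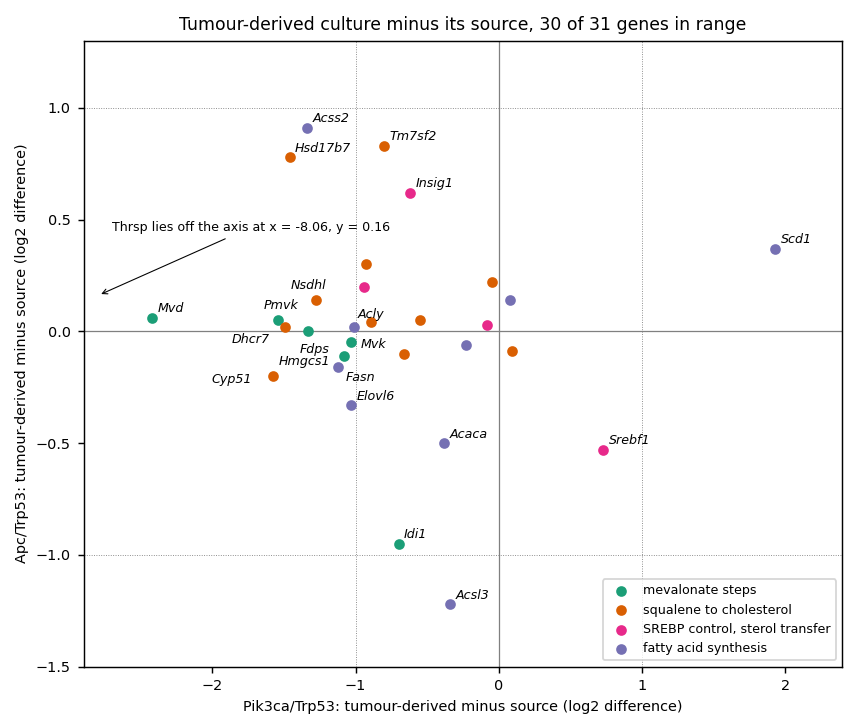
Log2 difference of each gene between tumour-derived culture and source in Pik3ca/Trp53 (x axis) and Apc/Trp53 (y axis), coloured by role, with genes at 2-fold on the x axis or 0.5 on the y axis named. Most points lie left of 0 on the x axis and near 0 on the y axis, and Thrsp lies beyond the left edge at -8.06.

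Both tumour-derived cultures were also fitted against both sources with limma. The fit held genotype as a block, which left 1 residual degree of freedom. It called 0 of 14219 genes at an adjusted p of 0.05, and 552 genes (3.88%) had an unadjusted p under 0.05. 0 of the 31 genes were among them, their median difference was -0.42 and their lowest adjusted p by limma was 0.996. A second limma fit set the 3 cultures with Trp53 loss before inoculation against the single control and had 2 residual degrees of freedom. It called 0 of 15025 genes, with 1262 (8.4%) at an unadjusted p under 0.05. 2 of the 31 were among these. Scd1 was 1.73 higher on the log2 scale (SE 0.573) with an adjusted p of 0.568 by limma, and higher than control in 3 of 3 cultures. Hsd17b7 was 1.05 lower, a difference of -1.05 (SE 0.264), with an adjusted p of 0.442 by limma, and lower than control in 3 of 3 cultures. Neither passed the adjustment, and the control side of this fit is 1 array. Both genes were picked through this fit, so 3 of 3 cultures on one side of a shared control is no separate evidence. Other members, such as Scd2 and Dhcr7, were also higher than control in 3 of 3.

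Proliferation genes differed beside the Pik3ca/Trp53 values. Of 10 such genes, 6 were at least 2-fold higher in Pik3ca/Trp53 than in Trp53 loss (9.03% of all genes), with a median of 1.49, and the median in its tumour-derived culture minus the source was -0.41. In tumour-derived Apc/Trp53 minus its source, where the lipid synthesis genes had a median of 0.03, it was 0.41. The part of growth rate in the lipid synthesis values was not tested.

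The members share promoter features that the choice of genes did not use. The RefSeq table of promoters (build GRCm38.p6, from 250 bases before to 50 after a transcript start) held windows for 25 of the 31, all but Fdft1, Fdps, Scd1, Scd2, Sqle and Stard4. NF-Y, a factor that works beside SREBP at sterol-regulated promoters, binds the box ATTGG, which the other strand reads as CCAAT. Searched on both strands, the box was in a window of 23 of 25 genes, 92.0%, against 41.1% of 27025 genes and 42.7% of the 12729 that were above background here. 11 of the 25 held at least 2 boxes, 44.0%, against 13.3% and 15.6%. The windows of Acaca and Elovl6 held none. The Sp1 box GGGCGG was in 20 of 25, 80.0%, against 38.2% of all genes and 61.5% of those above background. The E-box CACGTG was in 4 of 25, 16.0%, against 8.09% and 10.8%. The core of the sterol regulatory element, TCACNCCAC, was found in Hmgcs1 alone, 4.0% against 1.44% and 1.48%. A match describes letters in the window and shows no binding.

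The 250 bases before the start are shown, from RefSeq on GRCm38.p6, for 6 of the genes that were at least 2-fold lower in tumour-derived Pik3ca/Trp53 than in its source. They were chosen after the matches were seen, to show stretches with at least 2 NF-Y boxes, and do not stand for all 14. In the same 250 bases Acly and Elovl6 held 0 boxes, Acss2 and Cyp51 held 1, and Pmvk held 1 before one of its starts and 0 before the other. Hsd17b7, with 3, and Dhcr7, with 2 before one of its starts, are not shown. Each runs 5' to 3' on the strand of its gene and ends at the base before the transcript start, outside the transcribed exon. Capitals mark NF-Y boxes in either orientation and, in Hmgcs1, the sterol element core.
Hmgcs1 (chr13:119690101-119690350, plus strand): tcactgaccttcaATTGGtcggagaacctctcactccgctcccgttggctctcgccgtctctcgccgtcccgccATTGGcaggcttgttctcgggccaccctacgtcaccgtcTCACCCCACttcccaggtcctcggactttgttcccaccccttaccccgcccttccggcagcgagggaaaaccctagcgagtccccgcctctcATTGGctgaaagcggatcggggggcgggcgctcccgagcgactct
Mvk (chr5:114444019-114444268, plus strand): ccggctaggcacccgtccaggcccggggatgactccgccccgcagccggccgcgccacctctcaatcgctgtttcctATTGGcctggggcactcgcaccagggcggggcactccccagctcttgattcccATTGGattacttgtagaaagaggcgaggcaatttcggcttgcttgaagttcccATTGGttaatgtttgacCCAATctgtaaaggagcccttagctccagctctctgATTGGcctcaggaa
Mvd (chr8:122443423-122443672, minus strand): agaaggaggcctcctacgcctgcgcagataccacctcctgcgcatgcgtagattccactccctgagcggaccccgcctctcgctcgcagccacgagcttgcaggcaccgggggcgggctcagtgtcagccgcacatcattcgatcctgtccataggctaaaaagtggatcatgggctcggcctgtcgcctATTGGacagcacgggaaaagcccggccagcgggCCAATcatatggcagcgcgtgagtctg
Nsdhl (chrX:72918271-72918520, plus strand): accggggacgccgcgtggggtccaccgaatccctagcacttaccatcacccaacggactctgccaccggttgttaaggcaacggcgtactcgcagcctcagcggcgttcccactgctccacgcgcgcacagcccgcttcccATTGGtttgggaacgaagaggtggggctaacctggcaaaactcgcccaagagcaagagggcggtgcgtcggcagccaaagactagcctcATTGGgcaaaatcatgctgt
Fasn (chr11:120824548-120824797, minus strand): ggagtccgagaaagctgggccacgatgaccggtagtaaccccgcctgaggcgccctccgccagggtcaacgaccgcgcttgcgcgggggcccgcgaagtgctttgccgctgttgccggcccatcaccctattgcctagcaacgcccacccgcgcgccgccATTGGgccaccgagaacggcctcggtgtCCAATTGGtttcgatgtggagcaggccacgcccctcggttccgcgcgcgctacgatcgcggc
Thrsp (chr7:97417551-97417800, minus strand): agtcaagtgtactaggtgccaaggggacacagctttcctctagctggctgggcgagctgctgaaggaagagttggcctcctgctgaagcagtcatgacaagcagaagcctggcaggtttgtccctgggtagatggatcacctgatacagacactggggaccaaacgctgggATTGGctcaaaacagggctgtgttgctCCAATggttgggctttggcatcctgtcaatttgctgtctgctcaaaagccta

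The Hmgcs1 stretch holds 3 NF-Y boxes and the sterol element core, whose first base lies at -137 from the start. Mvk, which was high in Pik3ca/Trp53 alone, holds 5 boxes, and Mvd, with the largest difference of the mevalonate steps, holds 2. In Fasn 2 of 3 matches share letters, in CCAATTGG. Thrsp and Nsdhl hold 2 each. The difference of tumour-derived Pik3ca/Trp53 from its source was 2.04-fold for Mvk and 5.34-fold for Mvd. Whether the number of boxes goes with the size of the difference was not tested.

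Other genes of the sterol and SREBP pathway were taken from a separate list, of which 9 were measured. In tumour-derived Pik3ca/Trp53 minus its source, 2 of 9 were at least 2-fold lower (10.6% of all genes) and 0 higher (14.5%), with a median of -0.77. Erg28, a scaffold of the C4 demethylation enzymes, stood at 5.33, 5.36, 6.24, 4.89, 5.61 and 6.04. Like Mvd, Cyp51 and Dhcr7, it was highest in Pik3ca/Trp53 and lowest in its tumour-derived culture, 2.55-fold below the source. Tmem97, a membrane protein that binds sterols, had 1.62, 2.01, 2.21, 1.04, 2.08 and 1.90, with the same arrays at its extremes and a 2.26-fold difference between them. Mbtps1, the protease that first cuts SREBPs, was 2.48-fold higher in Pik3ca/Trp53 than in Trp53 loss, with an SD of 1.28 between its 4 probes, which means that they disagree on the size. It was the only one of the 9 at 2-fold in that comparison, where 9.03% of all genes were higher and 8.67% lower. Insig2, the relative of Insig1 that is not an SREBP target, ranged only from 1.24 to 1.82, and Scap, which escorts SREBPs out of the endoplasmic reticulum, from 2.97 to 3.42. In Trp53 loss minus control, Apc/Trp53 minus Trp53 loss and tumour-derived Apc/Trp53 minus its source, 0 of the 9 were at least 2-fold apart. Of all genes, 6.17%, 5.27% and 11.1% were higher by as much in these comparisons, and 7.16%, 5.39% and 8.23% lower.

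Genes of sterol export and LXR were mixed in that culture. Of 11, 4 were at least 2-fold higher (14.5% of all genes) and 2 lower (10.6%) than in the source, and the median was 0.29. The exporter Abca1 stood at 0.88, 0.54, 0.25, 1.48, 0.64 and 0.59, and Abcg1 at -0.78, -0.13, -0.40, 1.84, 1.04 and 0.12. For both, tumour-derived Pik3ca/Trp53 was the highest array, 2.35-fold and 4.71-fold above its source. Nr1h3, the gene of LXR-alpha, was 3.85-fold higher. Lipa, the lysosomal lipase that frees cholesterol from its esters, was 9.65-fold higher, at 3.71 against -0.24 to 0.44 elsewhere. Soat1, which makes cholesterol esters, was 4.93-fold lower, at -0.11 against 1.20 to 2.39 elsewhere, and Lpcat3, a phospholipid acyltransferase and LXR target, was 2.44-fold lower. In tumour-derived Apc/Trp53, 0 of the 11 were at least 2-fold higher (11.1% of all genes), and Mylip, a ubiquitin ligase and LXR target, was 2.0-fold lower.

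**Figure D5:**
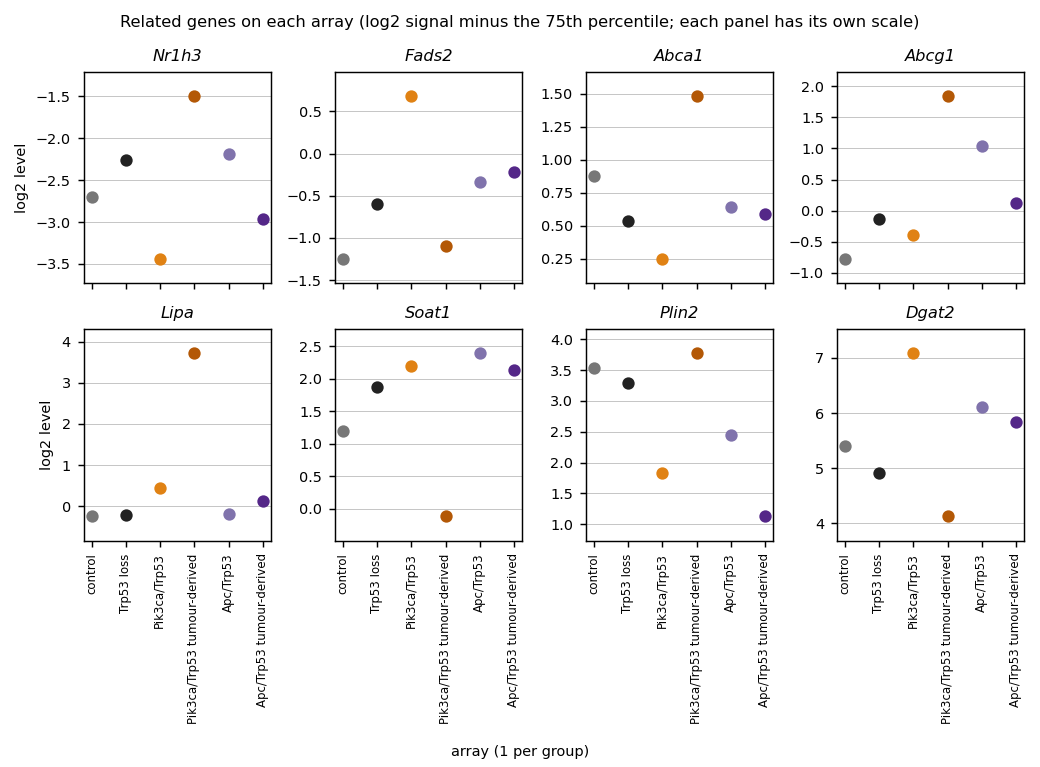
Log2 level (y axis, own scale in each panel) of 8 related genes on each of the 6 arrays (x axis, 1 point per array). Nr1h3, Abca1, Abcg1, Lipa and Plin2 have their highest point in tumour-derived Pik3ca/Trp53, and Soat1 and Dgat2 their lowest, while Fads2 is highest in Pik3ca/Trp53.

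Other genes of fatty acid and glyceride synthesis were taken from a separate list. In Pik3ca/Trp53 minus Trp53 loss, 4 of 25 were at least 2-fold higher (9.03% of all genes) and 0 lower (8.67%). In its tumour-derived culture minus the source, 8 of 25 were at least 2-fold lower (10.6% of all genes) and 2 higher (14.5%). Dgat2, which makes triglycerides, stood at 5.40, 4.92, 7.08, 4.13, 6.11 and 5.83. It was 4.45-fold higher in Pik3ca/Trp53 and 2.27-fold higher in Apc/Trp53 than in Trp53 loss, and 7.71-fold lower in the tumour-derived Pik3ca/Trp53 culture than in its source. Fads2, the delta-6 desaturase, was 2.42-fold higher in Pik3ca/Trp53 than in Trp53 loss and 3.43-fold lower in the tumour-derived culture. Pnpla3, a lipid droplet protein and SREBP-1c target, was above background in Pik3ca/Trp53 alone, at least 2.99-fold above Trp53 loss. Gpam, the first acyltransferase of glyceride synthesis, was 2.53-fold lower in tumour-derived Pik3ca/Trp53 than in its source. The 2 that were higher there were the Scd1 relatives Scd3 and Scd4. Each had 1 probe dim in the source, and with it at its bound the difference was at least 3.3-fold for Scd3 and at least 1.1-fold for Scd4. In Trp53 loss minus control, 3 of 24 were at least 2-fold higher (6.17% of all genes) and 0 lower (7.16%). They were Mlxipl (3.09-fold), the carbohydrate-response factor ChREBP, Scd3 (2.93-fold) and Acss1 (2.7-fold), the mitochondrial acetyl-CoA synthetase. Scd3 had 1 probe dim in control, and with it at its bound the difference was at least 1.98-fold, with an SD of 1.32 between 4 probes as measured.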

How the data were processed

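Total RNA of 6 organoid cultures was labelled with Cy3 from a low-input kit and hybridised to 6 one-colour Agilent arrays, 1 for each group, per the labels' protocols. The deposited scanner files hold background-subtracted and detrended spot intensity, made with Agilent Feature Extraction 11.0.1.1 without scaling between arrays, per the file headers and the submitters' processing notes. They also hold flags for spots above background, saturated or outlying, of which 0 gene spots were saturated. A further table that the authors deposited gives log2 values for 2047 probes, with their centring not stated. It holds only Thrsp of the 31 genes and served as a check, in which differences between its columns equalled those of the scanner files (r of 1, slope of 1). Its column medians, in the array order of the report, were 0.03, -0.02, 0.15, -0.05, -0.32 and -0.20.

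Control and outlier-flagged spots were left out, spots of a probe were averaged, and the 75th percentile of each array was subtracted from the log2 intensity. Probes were named through RefSeq accessions (34566 of 56605 probes, 23787 genes, and 22039 probes unnamed). A gene's level is the mean over its probes. Its difference uses the probes that passed the background flag on either array of a comparison, so a difference can depart from that of the levels where probes were dim. There were 5 comparisons of 2 arrays without a test, with genes counted at 2-fold and 1.5-fold on signals as measured. The 2 fits used limma 3.58.1 in R 4.3.3 with Benjamini-Hochberg adjustment over all genes at 0.05, and were tested on simulated data. The simulated noise was independent and of the same size for every gene. That test therefore does not show which differences the fits could find in these data. Other work used data.table (version 1.17.8), Python 3.11.15, numpy 2.4.6, pandas 2.3.3 and matplotlib 3.10.9. A normexp background (offset 50) as an alternative had to use median spot signals.

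Members, gene lists, naming rule and tests were chosen with earlier results of these data known. A member was given with its level on every array when it differed by at least 2-fold in a comparison, passed a fit or was the extreme of its role in a comparison. Of the other lists, at most 4 genes per comparison were named among those 2-fold apart, and Insig2 always. Some genes of these lists are not reported here and were left out of the counts. The alternatives were scaling by the array median, quantile normalization, normexp, other filters on dim probes, 1 probe per gene, dim signals raised to the limit of background, a fit with a trend and a fit without the block. Other reference arrays were added after the values were seen. The number of arrays limits the precision.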

Additional observations from a re-analysis of the deposited data

Results flagged for a closer look

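In 15 instances a gene or list differed by at least 1.5-fold from the source in both tumour-derived cultures but in opposite directions. Only the 31 genes, the lists of related genes and the list medians were searched. Of all genes, 21.5% were 1.5-fold higher and 21.1% lower in the Pik3ca/Trp53 pair. In the Apc/Trp53 pair 17.4% were higher and 16.5% lower. The share of all genes with opposite differences was not counted, so the 15 instances have no baseline. Each rests on 1 array per side and the difference between the pairs was not tested. Log2 differences from the source are given with Pik3ca/Trp53 first and Apc/Trp53 second. 4 were genes of the synthesis pathways. Hsd17b7 had -1.46 and 0.78, and Acss2 had -1.34 and 0.91. Tm7sf2 had -0.80 and 0.83, and the SREBP retention factor Insig1 had -0.62 and 0.62. All 4 were thus lower after growth as a Pik3ca/Trp53 tumour and higher after growth as an Apc/Trp53 lesion.

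The other genes went the opposite way. The LXR gene Nr1h3 had 1.94 and -0.77, the exporter Abcg1 2.24 and -0.92, and Mylip 0.78 and -1.0. The desaturase gene Scd3 had 1.82 and -1.32, and Ppara, a receptor for fatty acids, had 2.70 and -1.26. Among genes of lipid storage, Plin2 had 1.95 and -1.31, Cidea 6.84 and -4.18, and G0s2 7.06 and -2.54. Abhd5, the coactivator of triglyceride lipase, had 1.53 and -1.35, and Fitm2 had 1.32 and -1.12. The median of the storage list was 1.32 and -1.33. Cidea, G0s2 and Fitm2 were dim on 1 side, where the folds are at least 28.0, 41.2 and 1.19 for Pik3ca/Trp53 and at least 4.89, 1.18 and 1.90 for Apc/Trp53. Scd3 had 1 of 4 probes dim on the lower side of each pair, with folds of at least 3.3 and 1.70. The markers of the tumour-derived Pik3ca/Trp53 culture that set it apart, such as Csn3 at 6.36, stand beside all of these values, and their part was not tested.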

How the results depend on the processing

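With no array to spare in any group, the order of single cultures is all that the 5 comparisons can show, and dim signals limit Thrsp. Under other settings of the processing, only members at least 2-fold apart in a comparison were followed. A change of sign was thus unlikely from the start. Of 168 such values, 155 moved by less than the spread between probes, 13 moved by more and 0 changed sign. Filters on dim probes could hardly move these values, since 46 of 50 member probes were above background on all 6 arrays. Taking 1 probe per gene could not move the 15 members that have 1 probe. The 1 member at 2-fold in Trp53 loss minus control became 0 under quantile normalization and 0 under normexp. Without a filter on dim probes, the members' median minus that of all genes was 0.21 (0.45 as reported) in Pik3ca/Trp53 and 0.26 (0.07) in Apc/Trp53 minus Trp53 loss, and -0.64 (-0.87) and -0.09 (0.08) in their tumour-derived cultures minus the source, since more dim genes enter the median of all genes. Scaling by the array median gave 2 members at least 2-fold lower in tumour-derived Apc/Trp53 where 1 is reported. It also put the all-gene median at 0.23, 0.07, 0.09, -0.18 and -0.37 in the 5 comparisons, and the share of higher calls among all genes from 46.3% to 56.9% in the first and from 57.3% to 37.5% in the fifth. Normexp shrank the counts of all genes, for example from 886 higher and 1028 lower to 289 and 357 in the first. The 14 lower members of tumour-derived Pik3ca/Trp53 numbered 10 under normexp and 17 under the array median. References added after the values were seen moved more. Against control, Pik3ca/Trp53 had a median of 0.64 above all genes, 10 higher and 1 lower, and Apc/Trp53 had 0.25 and 4 higher. Against Trp53 loss, tumour-derived Pik3ca/Trp53 had -0.52, 2 higher and 6 lower, with Mvk at 0.35 where the source gives -1.03, and tumour-derived Apc/Trp53 had 2 higher and 2 lower. The limma fits called 0 members under every alternative run. Of all genes, quantile normalization called 2 higher and 74 lower in the fit against control. The fit of tumour-derived cultures had genotype as its replicate block. Without that block it called 0 genes, with 496 at an unadjusted p under 0.05. Leaving out each culture with Trp53 loss in turn left 0 calls (0 to 0), with 782 to 1533 at an unadjusted p under 0.05. The cause of these changes was not tested beyond what is said.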

Other observations

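Genes of lipid storage were set beside those of synthesis. Plin2, which coats lipid droplets, stood at 3.54, 3.29, 1.83, 3.77, 2.44 and 1.13 in the array order used above. It was thus low in the Pik3ca/Trp53 source, where the synthesis genes were mostly at their highest, and high in its tumour-derived culture, where they were mostly at their lowest. Cidea, which fuses droplets, stood at 0.13, 0.54, -5.66, 1.17, -1.84 and -6.02 and was not above background in the Pik3ca/Trp53 source or in tumour-derived Apc/Trp53. Cidec was above background in tumour-derived Pik3ca/Trp53 alone, at least 11.0-fold above the source. Plin4 did not follow: it stood at -0.50, -0.15, -2.46, -3.85, -0.88 and -3.49, low in both tumour-derived cultures. Of the storage list, 7 of 11 were at least 2-fold higher in tumour-derived Pik3ca/Trp53 than in its source (14.5% of all genes) and 7 of 10 at least 2-fold lower in tumour-derived Apc/Trp53 (8.23%). The Pik3ca/Trp53 source was itself low for this list. Against Trp53 loss, 4 of 9 were at least 2-fold lower there (8.67% of all genes) and 0 higher (9.03%), with a median of -0.60. In Trp53 loss minus control, 0 of 9 were 1.5-fold apart (12.5% of all genes were higher and 12.9% lower) and the median was 0.19.

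Of 16 fatty acid oxidation genes measured, 14 lay above 0 in Trp53 loss minus control (57.0% of all genes), with a median of 0.33. Their median was 0.02 in tumour-derived Pik3ca/Trp53 minus its source, where 9 of 16 lay above 0 (46.5% of all genes). It was -0.19 in tumour-derived Apc/Trp53 minus its source, where 12 of 16 lay below 0 and 4 above it (45.4% of all genes). Ppargc1a, a coactivator of mitochondrial genes, stood at 0.44, 1.70, -0.12, -1.38, 1.14 and -0.77, which is 2.41-fold and 3.76-fold lower in the tumour-derived cultures than in their sources. Cpt2, a carnitine palmitoyltransferase, was 2.72-fold lower in tumour-derived Pik3ca/Trp53, while Ppara was 2.7 higher there on the log2 scale. In that comparison, 1 of 16 was at least 2-fold higher (14.5% of all genes) and 2 lower (10.6%). In tumour-derived Apc/Trp53 minus its source, 0 were higher by as much (11.1%) and 2 lower (8.23%).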
